A study of Mus musculus with 32 samples.

Results

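Molecular chaperones were compared between Nox4 knockout and wild-type mice in brain, kidney, muscle and pancreas. The members were all genes whose symbol in the array's probe annotation starts with Hsp90, with Hspa, Hspb, Hspd, Hspe or Hsph and a number, with Dnaja, Dnajb or Dnajc and a number, with Cct and a number, or with Bag and a number. These symbols gave 65 genes on 104 probes, of 9030 named genes and 20794 probes in all. They were the cytosolic and endoplasmic reticulum HSP90 proteins (2 genes), the HSP70 proteins with HSP110 (9) and the mitochondrial chaperonin HSP60 with its lid HSP10 (2). The others were the small heat shock proteins (5), the J-domain families DNAJA (3), DNAJB (9) and DNAJC (21), the chaperonin family named Cct (9) and the BAG proteins (5). Hspa8, Hsp90ab1 and Dnajb9 were not among the named probes.

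Each of 4 male Nox4 -/- mice on a C57BL/6 background, 17 weeks old, gave all 4 tissues. NOX4 is an NADPH oxidase that releases hydrogen peroxide. Each tissue was hybridised on 2 cDNA arrays with the dyes exchanged, always against a pool of RNA from wild-type males of that strain and age. The sources disagree on how many animals were pooled: 4 by the design text and by the pool's own labels, another number by the labelling protocol. How the allele was made is not given in the sources used here, and Nox4 was not among the named probes, so the knockout was not checked.

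Chaperones bind proteins that are unfolded and help them to fold, to cross membranes or to be degraded. HSP70 does this in cycles of ATP hydrolysis that J-domain proteins start and that nucleotide exchange factors such as BAG proteins end, and HSP90 receives clients from HSP70. Heat, oxidants and misfolded protein activate the transcription factor HSF1, which binds heat shock elements and induces the cytosolic and mitochondrial stress chaperones, whereas unfolded protein in the endoplasmic reticulum induces BiP (Hspa5), GRP94 (Hsp90b1) and their partners through the ER stress element.

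Both elements were searched in the promoters of the members, and sites that matched are shown. The windows ran from 250 bases before to 50 bases after each gene's start in RefSeq (GRCm38.p6), and 55 of the 65 genes had one. The heat shock element was searched on both strands as 3 alternating units of GAA and TTC with 2 free bases between units. It was found for 4 of the 55 genes (7.27%), against 0.662% of all 27025 genes with a window. Hspa1a, Hspa1b, Dnajb1, Hspb1 and Bag3, known to be induced by HSF1, had a window but no match. The search thus does not mark all genes that HSF1 acts on. Hspd1 and Hspe1, which lie head to head, share one site of overlapping matches (chr1:55088029-55088106, plus strand, with the site in capitals). The other sites were upstream of Dnajb6 (chr5:29735822-29735894, plus strand) and after the start of Hsph1, which is not printed.
Hspd1 and Hspe1: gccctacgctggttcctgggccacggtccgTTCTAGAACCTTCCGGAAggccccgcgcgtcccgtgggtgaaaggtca
Dnajb6: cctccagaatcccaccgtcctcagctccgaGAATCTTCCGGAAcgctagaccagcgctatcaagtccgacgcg

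The ER stress element was searched on both strands as CCAAT, 9 free bases and CCACG. It was found for 3 of the 55 genes (5.45%), against 0.137% of all genes with a window. The 3 genes encode proteins of the endoplasmic reticulum: Hspa5 (chr2:34771995-34772073, plus strand), Hsp90b1 (chr10:86705608-86705686, minus strand, the farther of 2 sites) and Dnajc3 (chr14:118937797-118937875, plus strand). Capitals mark the whole element with its free bases.
Hspa5: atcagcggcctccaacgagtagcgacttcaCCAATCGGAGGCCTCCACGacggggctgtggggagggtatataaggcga
Hsp90b1: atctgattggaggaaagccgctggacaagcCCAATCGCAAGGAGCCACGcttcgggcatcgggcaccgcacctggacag
Dnajc3: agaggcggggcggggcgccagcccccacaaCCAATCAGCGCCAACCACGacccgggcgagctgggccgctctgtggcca

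All values below are log2 ratios, read as knockout over wild-type pool, so that 0 means equal and a value above 0 means more RNA in the knockout. This direction is likely from the labels but is not stated for the values; if it is inverse, higher and lower change places throughout. The 2 arrays of an animal correlated between -0.576 and 0.0634 over all probes in the 16 pairs, so exchanging the dyes often changed the sign of a value. The signs were kept as deposited, and averages by dye orientation are given for several of the genes. The arrays give ratios only, so neither the level of a chaperone nor the identity of a tissue could be checked. The array of brain animal 4 with the knockout in Cy3 stood apart, with an interquartile range of 0.66 against 0.17 to 0.38 on the other brain arrays, so the brain means of the genes described animal by animal are also given without it. In whole tissue, fewer cells of a type and less RNA per cell cannot be told apart.

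No chaperone gene passed the test in any tissue. Each tissue was tested with limma against 0 over its animals, with Benjamini-Hochberg adjustment over all genes, and a gene was called at an adjusted p under 0.05. The called members were 0 of 65 in brain, 0 of 65 in kidney, 0 of 65 in muscle and 0 of 64 in pancreas, where Dnajc30 had a single animal. Over all genes the called share was 0% in brain, muscle and pancreas and 0.00595% in kidney. The smallest adjusted p of a member in limma was 0.427 in muscle, 0.443 in kidney, 0.776 in brain and 0.996 in pancreas. At an unadjusted limma p under 0.05 stood 2 members in brain (3.08%, all genes 4.46%), 4 in kidney (6.15%, all genes 9.44%), 4 in muscle (6.15%, all genes 7.87%) and 1 in pancreas (1.56%, all genes 3.49%). These shares lay below those of all genes in every tissue. The test leaves out the spread among wild-type animals, because the pool is 1 control sample. Precision is limited by the 4 animals per tissue, since the 2 arrays of an animal are averaged before the test.

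The chaperones as a whole lay at 0. The median over members was -0.00 for brain (all genes 0.01), -0.00 for kidney (0.00), -0.01 for muscle (-0.02) and 0.03 for pancreas (0.00). Above 0 stood 30 of 65 members in brain, where 53.4% of all genes did, 32 in kidney (51.5%), 28 in muscle (41.6%) and 38 of 64 in pancreas (50.3%). Below 0 stood 25 in pancreas (49.6% of all genes), where Hspa12b was at 0, 37 in muscle (58.4%), 33 in kidney (48.4%) and 35 in brain (46.5%). The median size of a member's difference was 0.0563 for brain (all genes 0.0601), 0.0445 for kidney (0.047), 0.0974 for muscle (0.0826) and 0.0856 for pancreas (0.0794). All 4 animals were above 0 for 7 members in kidney (9.99% of all genes), 7 in muscle (6.65%), 4 in pancreas (5.13%) and 2 in brain (8.69%). All 4 were below 0 for 6 members in kidney (9.75%), 9 in muscle (11.5%), 1 in pancreas (4.85%) and 3 in brain (6.54%). A mean beyond 0.2 in size was found for 12 members in muscle, where 17% of all genes had one, 8 in pancreas (17.4%), 3 in brain (7.28%) and 1 in kidney (3.29%). Both tissues with more such members also had more such genes on the whole array.

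**Figure D1:**
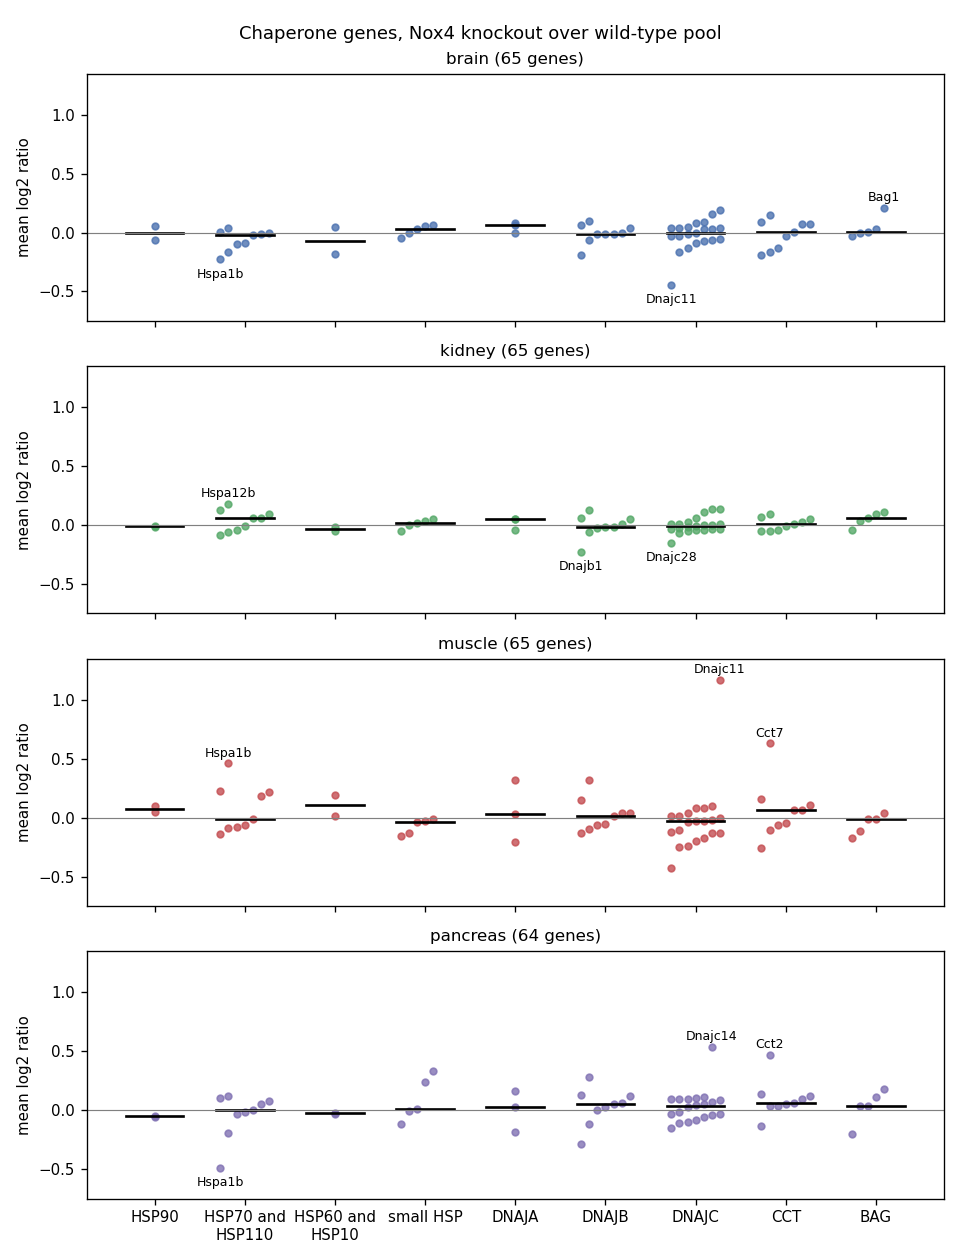
Mean log2 ratio of knockout over wild-type pool for every chaperone gene, by class, in one panel per tissue. Each point is 1 gene as the mean of its animals, bars mark class medians, the genes farthest from 0 are named, and most points lie within 0.2 of 0, with Dnajc11 (1.17) and Cct7 (0.63) in muscle the highest.

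The HSP90 genes, which encode the cytosolic HSP90 alpha (Hsp90aa1) and GRP94 of the endoplasmic reticulum (Hsp90b1), differed little from the pool. In brain, Hsp90aa1 was -0.04, 0.06, -0.09 and -0.18 in animals 1 to 4, a mean of -0.07 ± 0.06 (SE, n = 4). Its 2 probes there were at -0.166 and 0.035. The animals lay on both sides of 0, the mean without animal 4 was -0.03, and in the other tissues its mean ran from -0.05 to 0.05. In muscle, Hsp90b1 was 0.03, 0.16, 0.15 and 0.06, a mean of 0.10 ± 0.06 (SE, n = 4). All 4 animals and all 8 arrays were above 0 for Hsp90b1, as for 1.51% of all genes in muscle, and the highest array was at 0.25.

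Among the HSP70 genes, Hspa1b and Hspa1a encode the stress-inducible HSP70 and share nearly all of their coding sequence, so a cDNA probe may not separate them. In muscle, Hspa1b was 0.13, 0.78, 0.43 and 0.52, a mean of 0.46 ± 0.11 (SE, n = 4), with an average of 0.70 on Cy5 arrays and 0.22 on Cy3 arrays. All animals were above 0, animal 1 the lowest, and 7 of its 8 arrays. In pancreas, the gene was -1.20, -0.57, 0.02 and -0.22, a mean of -0.49 ± 0.21 (SE, n = 4), the lowest of the members there. Animals 1 and 2 carried most of that difference, and the mean without animal 1 was -0.25. The averages by dye were -0.09 on Cy5 and -0.89 on Cy3 arrays. In brain, Hspa1b was -0.05, -0.20, -0.05 and -0.61, a mean of -0.23 ± 0.11 (SE, n = 4), and -0.10 without animal 4. In kidney, it was -0.18, -0.07, 0.26 and 0.37, a mean of 0.10 ± 0.09 (SE, n = 4). The animals of muscle and pancreas did not overlap for Hspa1b, whereas those of kidney lay on both sides of 0. How many of all genes separate in this way was not counted.

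Its near copy, Hspa1a, was like Hspa1b below 0 in all animals of brain and lowest in animal 4. In brain, Hspa1a was -0.12, -0.09, -0.08 and -0.37, a mean of -0.16 ± 0.07 (SE, n = 4) with 7 of 8 arrays below 0, and -0.10 without animal 4. Its means elsewhere were -0.01 in muscle, -0.03 in pancreas and -0.06 in kidney, so the gene was near 0 in muscle and pancreas, where Hspa1b was farthest from it. Hsph1, the HSP110 that exchanges the nucleotide of HSP70, was 0.13, 0.16, 0.15 and 0.08 in kidney, a mean of 0.13 ± 0.04 (SE, n = 4). In brain, Hsph1 was -0.05, -0.05, 0.03 and -0.30, a mean of -0.09 ± 0.07 (SE, n = 4), and -0.02 without animal 4.

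Other HSP70 genes serve the organelles. Hspa5, the BiP of the endoplasmic reticulum, was -0.21, 0.15, -0.10 and -0.16 in kidney, a mean of -0.08 ± 0.06 (SE, n = 4), and its other means ran from -0.09 to 0.04. Hspa9, the mitochondrial HSP70, was -0.01, 0.54, 0.24 and 0.12 in muscle, a mean of 0.22 ± 0.10 (SE, n = 4). Its 4 probes disagreed, running from -0.02 to 1.47 there, so the mean rests on which spot is read. In pancreas its mean was -0.20 ± 0.09 (SE, n = 4), with probes from -1.18 to 0.02. Hspa14, a ribosome-associated HSP70, was -0.00, 0.22, 0.17 and 0.34 in muscle, a mean of 0.18 ± 0.08 (SE, n = 4). Its 3 probes there ran from -0.00 to 0.49. Over the class, 7 of 9 genes were below 0 in brain (median -0.02), 5 in muscle (-0.01), and 4 each in pancreas (0.00), where Hspa12b was at 0, and kidney (0.06).

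HSP60 (Hspd1) and HSP10 (Hspe1) form the folding chamber of the mitochondrial matrix and share the promoter printed above. In brain, Hspd1 was 0.06, -0.14, 0.07 and -0.73, a mean of -0.18 ± 0.14 (SE, n = 4), and -0.00 without animal 4. Its 2 probes there were at -0.34 and -0.03. In muscle, Hspe1 was -0.05, -0.10, 0.66 and 0.27, a mean of 0.19 ± 0.14 (SE, n = 4), beside 0.01 for Hspd1. Neither gene kept 1 side in these tissues, and both lay between -0.05 and -0.02 in kidney and pancreas. The 4 genes with a heat shock element had medians of -0.05 for brain, 0.02 for kidney, -0.02 for muscle and 0.01 for pancreas. The 51 members with a window but no match had medians of 0.00, -0.00, -0.01 and 0.03. They include Hspa1a, Hspa1b and Dnajb1, so this split does not separate targets of HSF1 from other genes.

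The small heat shock proteins hold unfolded proteins in solution without ATP, and several of those here are known from muscle. In pancreas, Hspb1, the widely expressed member, was 0.18, 0.51, 0.24 and 0.03, a mean of 0.24 ± 0.10 (SE, n = 4), with 7 of 8 arrays above 0. In muscle, it was -0.11, -0.03, -0.24 and -0.25, a mean of -0.16 ± 0.07 (SE, n = 4), with 7 of 8 arrays below 0. The animals of the 2 tissues therefore did not overlap, but the share of all genes that separate so was not counted. Between these tissues 13.2% of all genes had an unadjusted limma p under 0.05. The averages on Cy5 and Cy3 arrays were 0.43 and 0.05 in pancreas and -0.07 and -0.25 in muscle. Hspb2 was 0.60, 0.33 and 0.07 in pancreas, a mean of 0.33 ± 0.14 (SE, n = 3), since animal 1 lacked a value on an array, and its averages were 0.04 on Cy5 and 0.65 on Cy3 arrays. All 5 genes of the class were below 0 in muscle, with a median of -0.04, where 58.4% of all genes were below 0. In brain, kidney and pancreas 3 of 5 were above 0.

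DNAJA and DNAJB proteins bring clients to HSP70 and start its ATP hydrolysis. The kidney's lowest member was Dnajb1, the HSP40 that pairs with inducible HSP70, at -0.22, -0.23, -0.13 and -0.34, a mean of -0.23 ± 0.05 (SE, n = 4). All animals and 7 of 8 arrays were below 0, with averages of -0.32 on Cy5 and -0.14 on Cy3 arrays, and its limma adjusted p, the smallest of a member in kidney, was 0.443. In brain, Dnajb1 was 0.02, -0.02, -0.07 and 0.32, a mean of 0.06 ± 0.08 (SE, n = 4), and -0.02 without animal 4, and its means in muscle and pancreas were both 0.02. Among markers of handling and acute stress, 6 of 9 were below 0 in kidney (48.4% of all genes). Of these 4 were below 0 in all animals (9.75% of all genes), among which Junb was at -0.15. The other 3 markers were above 0, with Ier2 at 0.11 above 0 in all animals. The part of these markers in the value of Dnajb1 was not tested.

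Dnajb2, a J protein of neurons that hands clients to the proteasome, was the only member at an unadjusted limma p under 0.05 in pancreas. Its values there were -0.18, -0.39, -0.32 and -0.27, a mean of -0.29 ± 0.08 (SE, n = 4), with 7 of 8 arrays below 0. The mean was -0.09 where arrays were averaged per probe before the probes were joined. In brain, Dnajb2 was 0.02, 0.15, 0.07 and 0.13, a mean of 0.09 ± 0.05 (SE, n = 4), and 0.08 without animal 4. In muscle its 2 probes were at -0.11 and 1.62, so its mean there, 0.32, describes neither.

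Of the other genes of these families, Dnajb8 was above 0 in all animals and with both probes in pancreas and kidney. Dnajb8, a member known from testis, was 0.24, 0.72, 0.16 and 0.02 in pancreas, a mean of 0.28 ± 0.13 (SE, n = 4), with averages of -0.11 on Cy5 and 0.67 on Cy3 arrays. In kidney, it was 0.33, 0.05, 0.10 and 0.02, a mean of 0.13 ± 0.06 (SE, n = 4), and in brain it was -0.00, -0.02, 0.05 and -0.04, a mean of -0.00 ± 0.05 (SE, n = 4) and 0.01 without animal 4. The kidney averages were -0.03 on Cy5 and 0.28 on Cy3 arrays, so in neither tissue did the orientations share a sign. Dnaja1 was -0.30, 0.08, -0.34 and -0.16 in pancreas, a mean of -0.18 ± 0.10 (SE, n = 4), with animal 2 alone above 0. Its Cy5 arrays there ran from -1.07 to 0.05, whereas all of its Cy3 arrays were above 0, from 0.01 to 0.39. Dnaja4 was 0.40, 0.10, 0.08 and 0.70 in muscle, a mean of 0.32 ± 0.12 (SE, n = 4). Its 2 probes were at -0.03 and 1.38, and with 1 value at the floor of a channel kept as deposited the mean was -0.64.

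DNAJC is the largest and least uniform family, with members in mitochondria, the endoplasmic reticulum and the nucleus. The highest member of all was Dnajc11, a J protein of mitochondria, at 0.22, 2.12 and 1.17 in muscle animals 1, 3 and 4, a mean of 1.17 ± 0.36 (SE, n = 3). Animal 2 had a single array, at -0.19, and was left out. Of all 7 arrays 4 were above 0 and 3 below, up to 2.80, so the mean does not describe its arrays. In brain, Dnajc11 was -0.53, 0.46, -0.03 and -1.67, a mean of -0.44 ± 0.33 (SE, n = 4), and -0.03 without animal 4.

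In brain, Dnajc14, known as a J protein of the endoplasmic reticulum membrane, was 0.08, 0.36, 0.13 and 0.19, a mean of 0.19 ± 0.06 (SE, n = 4), and 0.19 without animal 4. The averages by dye were -0.12 on Cy5 arrays and 0.50 on Cy3 arrays, so the value stands on one orientation. Dnajc9, a histone chaperone of the nucleus, was -0.12, 0.26, 0.25 and 0.24 in brain, a mean of 0.16 ± 0.08 (SE, n = 4), and 0.13 without animal 4. Animal 1 alone was below 0. The Cy5 arrays of Dnajc9 ran from -0.03 to 0.59 and its Cy3 arrays from -0.20 to 0.08.

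In kidney, Dnajc28 was -0.14, -0.20, -0.08 and -0.17, a mean of -0.15 ± 0.04 (SE, n = 4). All animals were below 0. Dnajc1, a J protein of the endoplasmic reticulum, was 0.18, 0.24, 0.13 and -0.01 in kidney, a mean of 0.13 ± 0.05 (SE, n = 4). In muscle, Dnajc1 was -0.06, -0.15, -0.07 and -0.50, a mean of -0.19 ± 0.10 (SE, n = 4). All animals of muscle lay below those of kidney, and the share of all genes that separate so was not counted. Dnajc16 was -0.18, -0.06, -0.59 and -0.15 in muscle, a mean of -0.25 ± 0.10 (SE, n = 4). Dnajc3, the inhibitor of the kinases PERK and PKR, was -0.12, -0.15, -0.02 and -0.13 in muscle, a mean of -0.11 ± 0.06 (SE, n = 4). Of the 21 DNAJC genes 14 were below 0 in muscle and 5 in all 4 animals, where 11.5% of all genes were below 0 in all 4.

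**Figure D2:**
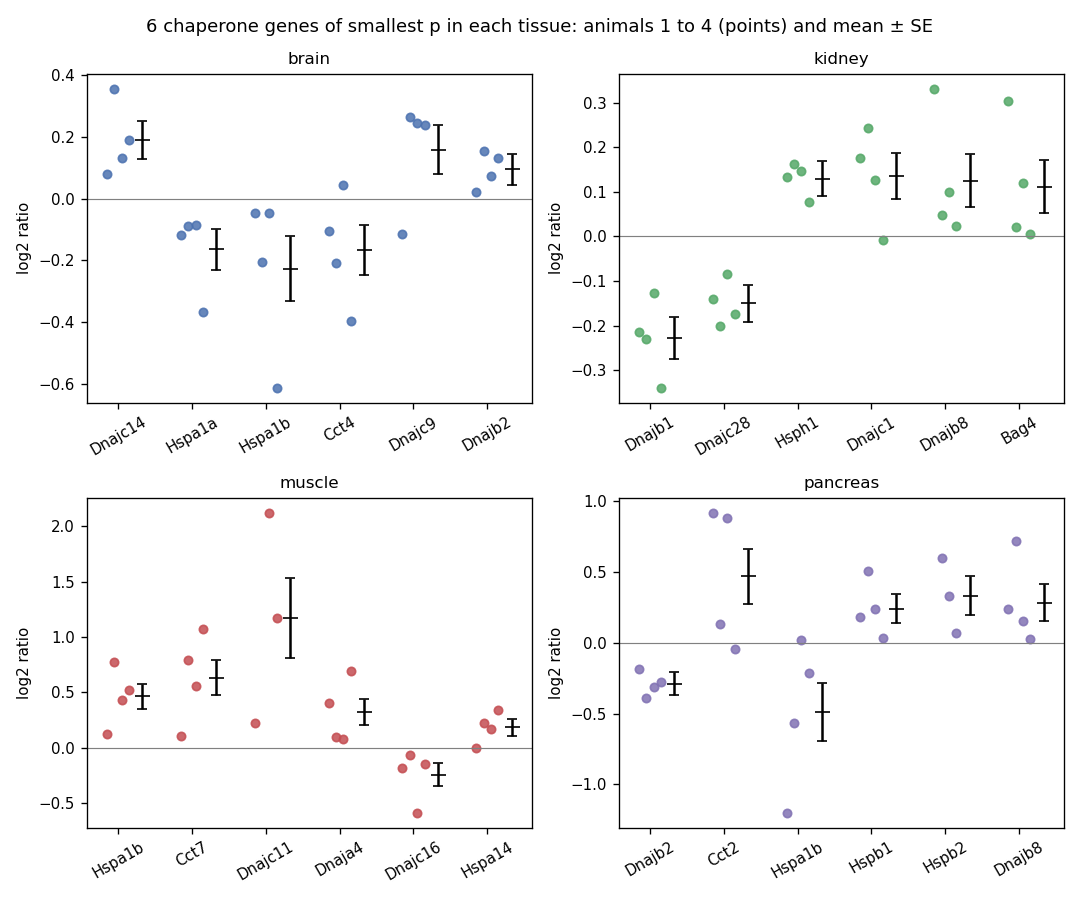
Log2 ratio of knockout over wild-type pool in each animal for the 6 chaperone genes of smallest p in each tissue, in one panel per tissue with its own scale. Points are animals 1 to 4 from left to right (mean of 2 arrays), bars are the mean ± 1 SE from limma, and in muscle Cct7 runs from 0.10 to 1.07 and Hspa1b from 0.13 to 0.78, all above 0.

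Most of the Cct genes encode subunits of TRiC, the ring that folds actin and tubulin and needs all of its different subunits. Cct7 in muscle was 0.10, 0.79, 0.56 and 1.07, a mean of 0.63 ± 0.16 (SE, n = 4), with averages of 0.44 on Cy5 arrays and 0.82 on Cy3 arrays. All 8 arrays were above 0, animal 1 being the lowest with 0.10 on both of its arrays. Its limma adjusted p was 0.428 in the fit of muscle alone and 0.00527 in a fit of all 4 tissues at once. In that joint fit, which takes a shared spread per gene although the tissues differ in spread, it was the 1 member called. Of all genes 1.72% were called there. Outside muscle, Cct7 ran from -0.11 to 0.14 over the animals in pancreas, from 0.02 to 0.11 in kidney and from -0.03 to 0.16 in brain, with means of 0.04 ± 0.09, 0.07 ± 0.04 and 0.07 ± 0.06 (SE, n = 4 each), and 0.04 in brain without animal 4. Animal 1 of muscle thus overlapped the other tissues and the remaining 3 animals did not.

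The other Cct genes did not follow Cct7 in muscle. Their means ran from -0.26 for Cct5 to 0.16 for Cct4, and Tcp1, a subunit of the ring not named Cct, was at -0.06. In pancreas, Cct2 was 0.91, 0.13, 0.88 and -0.05, a mean of 0.47 ± 0.19 (SE, n = 4). Animals 1 and 3 were high, animal 4 was just below 0, and the averages were 0.09 on Cy5 and 0.84 on Cy3 arrays. In brain, Cct2 was -0.09, -0.19, 0.11 and 0.07, a mean of -0.03 ± 0.07 (SE, n = 4), and -0.06 without animal 4. Cct4 was -0.11, -0.21, 0.05 and -0.40 in brain, a mean of -0.17 ± 0.08 (SE, n = 4), and -0.09 without animal 4, with averages of 0.13 on Cy5 and -0.46 on Cy3 arrays. In pancreas 8 of the 9 Cct genes were above 0, with a median of 0.06, where 50.3% of all genes were above 0.

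The BAG proteins release nucleotide and client from HSP70. Bag4 was 0.30, 0.02, 0.12 and 0.01 in kidney, a mean of 0.11 ± 0.06 (SE, n = 4). In pancreas, it was -0.52, 0.10, -0.50 and 0.12, a mean of -0.20 ± 0.15 (SE, n = 4), with animals 1 and 3 low and the others above 0. Its 2 probes there disagreed, at -0.45 and 0.05. Bag3, which HSF1 induces and which links HSP70 to autophagy, was -0.10, 0.09, 0.09 and 0.05 in kidney, a mean of 0.03 ± 0.05 (SE, n = 4), and had means between -0.03 and 0.04 in the other tissues. Bag1 had the highest mean of the brain members, 0.21, from a single animal at 0.89.

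Grouped by pathway, the chaperones known to be induced by HSF1 had 12 of 15 genes on the array. Their medians were -0.04 (brain), -0.01 (kidney), 0.00 (muscle) and -0.01 (pancreas), with 8, 8, 6 and 6 genes below 0. The 6 chaperones of the endoplasmic reticulum had medians of 0.01, -0.00, -0.10 and -0.04. Of these, all 3 with an ER stress element lay above 0 in brain (0.04 to 0.09) and below 0 in kidney (-0.08 to -0.0014). In muscle and pancreas 1 was above and 2 were below. Of the 52 members with a window but no such element, 24 were above 0 in brain and 26 below 0 in kidney. With 3 genes, these sides are a description only. The mitochondrial chaperones had medians of -0.05, -0.01, 0.01 and -0.02 over 10 genes (9 in pancreas). No gene of these groups was called by limma.

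The tissues were compared with each other in one limma fit over the 16 animal and tissue samples, with 64 members among 16186 genes. That fit takes a shared spread per gene, although spread differed between tissues. The median SD over all genes was 0.0988 in kidney, 0.127 in brain, 0.172 in muscle and 0.214 in pancreas. The SE may therefore be too small for muscle against pancreas. No member was called in any of the 6 pairs of tissues. The called share of all genes was 0% between brain and kidney, 0.704% between brain and muscle, 0% between brain and pancreas, 0.0185% between kidney and muscle, 0% between kidney and pancreas and 0.933% between muscle and pancreas. With the animal as a replicate block, the calls over all genes went from 114 to 40 between brain and muscle, from 3 to 0 between kidney and muscle and from 151 to 66 between muscle and pancreas. At an unadjusted limma p under 0.05 the members numbered 0, 6, 2, 3, 3 and 11 in that order (0%, 9.38%, 3.12%, 4.69%, 4.69% and 17.2%), against 2.93%, 9.56%, 8.38%, 6.36%, 5.83% and 13.2% of all genes. Muscle against pancreas, the 2 tissues of widest spread, was the one pair in which the share of members exceeded that of all genes. That share rests on 11 members.

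Differences are given as the first tissue named minus the second. Between muscle and pancreas, Hspa1b differed by 0.95 ± 0.23 (SE; limma adjusted p 0.0626), Cct7 by 0.59 ± 0.15 (adjusted p 0.0752), and Hspb1 by -0.40 ± 0.10 (adjusted p 0.0774). Hspb2 differed by -0.46 ± 0.14 (limma adjusted p 0.161). Hspa1b and Cct7 were thus higher in muscle and Hspb1 and Hspb2 lower, none past the threshold. The class medians in muscle and pancreas were -0.01 and 0.00 for HSP70 and 0.06 and 0.06 for Cct. For the small heat shock proteins they were -0.04 and 0.01. Hspa1a was near 0 in both tissues. Hspb3, alone among the small heat shock genes, was higher in muscle (-0.04) than in pancreas (-0.11). Between brain and muscle, Cct7 differed by -0.56 ± 0.15 (SE; limma adjusted p 0.119), Dnajc11 by -1.61 ± 0.46 (adjusted p 0.188) and Hspa1b by -0.69 ± 0.23 (adjusted p 0.281). Between kidney and muscle, Cct7 differed by -0.56 ± 0.15 (SE; limma adjusted p 0.199). Leaving out animal 1, which was lowest for both genes in muscle, limma called Cct7 between muscle and each of brain, kidney and pancreas and Hspa1b between brain and muscle, with muscle means of 0.81 and 0.57. Leaving out the lowest animal raises both means, so these calls add no support. The counts of called members were highest without this animal. In those 3 pairs 3.28%, 1.64% and 1.64% of members and 1.57%, 0.297% and 0.912% of all genes were then called.

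In the remaining pairs the differences were farther from the threshold. Between brain and pancreas, Cct2 differed by -0.49 ± 0.19 (SE; limma adjusted p 0.532). Between kidney and pancreas, Hspa1b differed by 0.59 ± 0.23 (SE; limma adjusted p 0.761). Between brain and kidney, the smallest unadjusted p belonged to Hsph1, with a difference of -0.22, and Dnajb1, with 0.29.

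**Figure D3:**
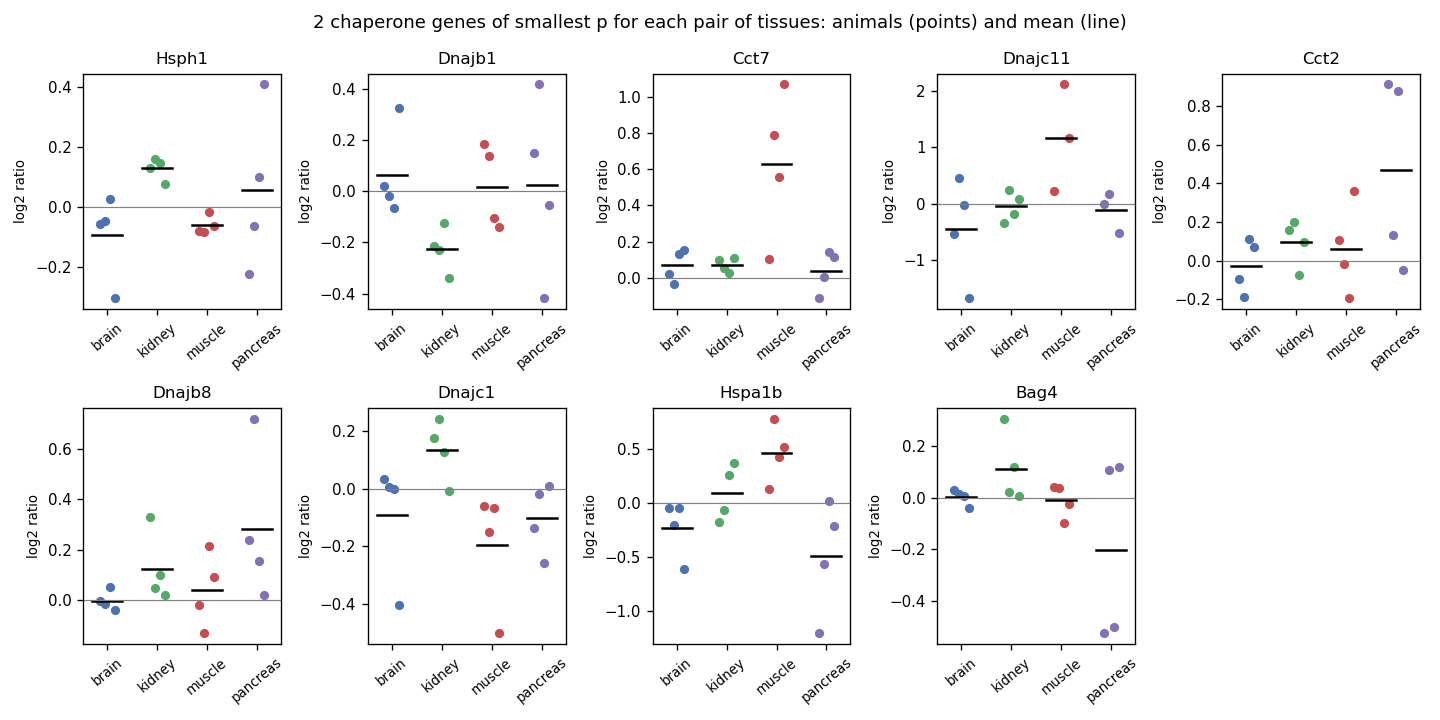
Log2 ratio of knockout over wild-type pool by tissue for the 2 chaperone genes of smallest p in each pair of tissues, in one panel per gene with its own scale. Points are animals and lines are means; Cct7 stands at a mean of 0.63 in muscle and between 0.04 and 0.07 elsewhere, and Hspa1b runs from -0.49 in pancreas to 0.46 in muscle.

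The dye split the members as it did the rest of the array. The mean over Cy5 arrays and the mean over Cy3 arrays had the same sign for 26 of 65 members in muscle (40%, all genes 34.4%), 24 in brain (36.9%, all genes 36.9%), 17 in kidney (26.2%, all genes 32%) and 17 of 64 in pancreas (26.6%, all genes 21.8%). Most members therefore changed side when the dyes were exchanged, among them Dnajc14 in brain, while Hspa1b and Cct7 in muscle and Dnajb1 in kidney did not. If the Cy3 arrays had been deposited with the opposite sign, 28 of the 44 means chosen by the naming rule would change sign. They include Cct7 (-0.19), Dnajc16 (0.21) and Dnaja4 (-0.22) in muscle, and Hspa1b (0.40), Cct2 (-0.38), Dnajb8 (-0.39) and Hspb2 (-0.31) in pancreas. Hspa1b (0.24) in muscle, Hspb1 (0.19) and Dnajb2 (-0.18) in pancreas, and Dnajb1 (-0.09) in kidney would keep it. With that sign limma called 3 members in muscle (Dnaja3, Dnajc17 and Dnajc30) and 8 in pancreas (Bag1, Dnajb1, Dnajb12, Dnajc10, Dnajc15, Dnajc17, Dnajc19 and Hspb7). The called share of all genes was then 5.31% in muscle and 18.8% in pancreas, so the members (4.62% and 12.5%) lay below it in both, and 0 members were called in brain (all genes 0%) or kidney (0.00595%). Between tissues it called 6 members for brain against pancreas (9.38%, all genes 9.95%) and 1 for kidney against pancreas (1.56%, all genes 2.41%). Over all genes, the means of pairs of tissues correlated between -0.131 and 0.0689 as deposited. With the Cy3 arrays turned, they correlated between 0.537 and 0.743. The part of the dye in the calls made with that sign was not tested.

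**Figure D4:**
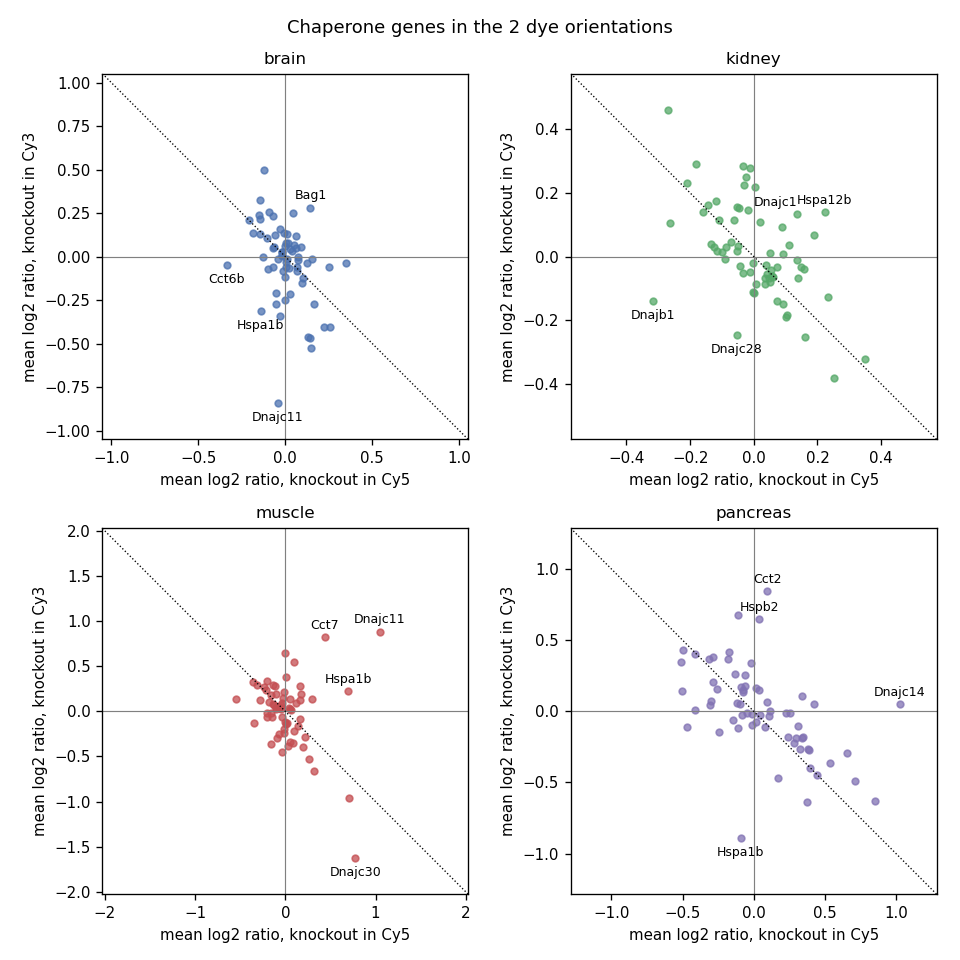
Mean log2 ratio on arrays with the knockout in Cy5 (horizontal) against arrays with the knockout in Cy3 (vertical) for each chaperone gene, in one panel per tissue. Points at the upper right or lower left keep their side in both orientations, as Cct7 in muscle (0.44 and 0.82) and Dnajb1 in kidney (-0.32 and -0.14) do, and most genes do not. The dotted line marks equal and opposite values.

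Partners of the chaperones outside the naming rule also held no called gene. Of 48 listed genes 31 were tested in brain, kidney and muscle and 29 in pancreas, and limma called 0 in each. At an unadjusted limma p under 0.05 stood 5 in kidney (16.1%, all genes 9.44%), 2 in pancreas (6.9%, all genes 3.49%), 2 in brain (6.45%, all genes 4.46%) and 1 in muscle (3.23%, all genes 7.87%). Below 0 stood 22 in muscle (71%, all genes 58.4%), 19 in kidney (61.3%, all genes 48.4%), 12 in pancreas (41.4%, all genes 49.6%) and 11 in brain (35.5%, all genes 46.5%). Among HSP90 co-chaperones 9 of 10 were below 0 in muscle, with a median of -0.08. Hikeshi, which carries HSP70 into the nucleus on heat shock, was at -0.35 ± 0.04 (SE, n = 4) in kidney, and Grpel1, the exchange factor of Hspa9, was at -0.42 ± 0.08 (SE, n = 4) in pancreas, each below 0 in all animals.

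Markers of other cells were read beside the values in muscle. Of 5 macrophage markers 4 were below 0, where 58.4% of all genes were. Their median was -0.10, and they ran from -0.53 for Ctss to 0.01 for C1qc. The endothelial markers ran from -0.26 for Flt1 to 0.60 for Tek, and the 4 myofibre markers from -0.10 to 0.08. Their part in the muscle values of Cct7 and Hspa1b was not tested.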

How the data were processed

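RNA of 4 tissues from 4 knockout mice was measured on 32 two-colour cDNA arrays. As deposited by the authors, each array holds a log2 ratio for each probe, with the base inferred from the floor values. How the arrays were scanned, corrected, normalised and filtered is not given in the sources used here. Signal over background was not used.

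Values beyond 8 in size (1844 of 655162), which were read as a channel at its floor, were taken as missing. The 12 such values of members were positive with the knockout in Cy5 and negative with it in Cy3. Probes of a symbol were averaged within an array, then the 2 arrays of an animal, both required. Symbols came from the platform annotation supplied with the data, and all 65 matched RefSeq. Each tissue was tested against 0 with limma 3.58.1 in R 4.3.3 (at least 3 animals), and tissues were compared in one fit with 12 residual degrees of freedom. The script was tested on simulated data. Errors are limma's moderated SE.

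The labels tie arrays to animals, so the tissues are paired. Deviations of the same animal correlated between -0.0918 and 0.112 across tissues. Genes were named by rule: in each tissue the 6 members of smallest p, for each pair of tissues the 2 of smallest p, a fixed core of known chaperones, and members with 1 sign on all 8 arrays. Bag1, Dnajc30, Hspb3, Junb, Ier2, Ctss, C1qc, Flt1, Tek, Hikeshi and Grpel1, and second tissues of genes, were picked after their values were seen. The members and lists were chosen with earlier results of these data known. Alternatives were the floor, the dye sign, centring, scaling, order of averaging, missing arrays, 1 animal left out, a joint fit, robust moderation and the replicate block.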

Additional observations from a re-analysis of the deposited data

Results flagged for a closer look

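Of 42 sets of 4 animals of named genes, 2 held an animal that stood apart from the others by Dixon's test, and chance flags about 1 in 20. Hspa1a in brain was -0.37 in animal 4 and -0.12 to -0.08 in the others, and this animal had the array with the widest spread in brain. Dnajc9 in brain was -0.12 in animal 1 and 0.24 to 0.26 in the others.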

How the results depend on the processing

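With the Cy3 arrays turned in sign, 3 chaperone genes were called in muscle, 8 in pancreas, 6 for brain against pancreas (all genes 9.95%) and 1 for kidney against pancreas (2.41%), where 0 were called as deposited. The pancreas median was then -0.0202 (0.0346 as deposited). Of 44 means 28 changed sign. In brain they became -0.31 for Dnajc14, 0.11 for Hspa1a, 0.0849 for Hspa1b, 0.30 for Cct4, 0.12 for Hsph1, -0.0935 for Dnajb1, -0.0594 for Cct7, 0.40 for Dnajc11, 0.0127 for Dnajb8 and 0.16 for Hspd1. In kidney they became 0.10 for Dnajc28, -0.16 for Dnajb8, -0.11 for Bag4 and -0.13 for Hspa1b. In muscle they became -0.19 for Cct7, -0.22 for Dnaja4, 0.21 for Dnajc16, -0.0106 for Hspa14, 0.10 for Dnajc1, -0.0438 for Hsp90b1, -0.0561 for Hspa9, -0.19 for Hspe1 and 0.094 for Dnajc3. In pancreas they became -0.38 for Cct2, 0.40 for Hspa1b, -0.31 for Hspb2, -0.39 for Dnajb8 and -0.12 for Cct7. With floor values kept, Dnaja4 in muscle was -0.64. Leaving out 1 animal in turn moved the brain means from -0.0703 to 0.0283 for Cct2, from -0.0197 to 0.0106 for Dnajb8 and from -0.0233 to 0.107 for Dnajb1. In a fit of all 4 tissues at once 1 member, Cct7, was called in muscle. Leaving out 1 animal in turn gave 0 to 2 called members between brain and muscle, 0 to 1 between kidney and muscle and 0 to 1 between muscle and pancreas, the highest counts without animal 1, and pancreas medians of 0.0104 (without animal 3) to 0.0303. With the animal as a replicate block the called members were 0 in all 6 pairs, with a smallest limma adjusted p of 0.0738 (muscle and pancreas), so the block changed no call of a member. All other alternatives run left each count of called members at 0. The cause of these shifts was not tested. Only 3 animals had both arrays for Dnajc11 in muscle and Hspb2 in pancreas, so some settings gave no value for them.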
